A study of Mus musculus with 39 samples.

Results

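The footprint-to-RNA ratio of a gene is the number of ribosome-protected fragments on its mRNA relative to the RNA reads of the same gene in the same tumors. It was taken here as a baseline property of tumor genes, estimated over 3 treated groups together with the group as a covariate. The libraries used were the 30 of these groups, out of 39 in all, and the control diet group was left out. They came from neuroblastoma tumors of 15 TH-MYCN mice, labelled MYCN amplified and neuroblast, in which a transgene under the tyrosine hydroxylase promoter drives MYCN in the sympathetic lineage. The DFMO group (mice named D) had a control diet with difluoromethylornithine (DFMO), which blocks ornithine decarboxylase. The diet group (P) was fed without proline and arginine, and the combination group (PD) received that diet with DFMO. Each group had 5 mice, each sample was a different mouse, and footprints and total RNA of a mouse came from the same extract. No label gave batch, sex or age.

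Ribosomes elongating on a coding sequence protect a short fragment of mRNA from nuclease, so footprints count ribosomes, while RNA reads count mRNA. Their ratio can differ between genes because mRNAs load ribosomes at different rates. Known controls include upstream reading frames that capture ribosomes before the main start codon, iron-responsive hairpins, the oligopyrimidine tract at the 5′ end of ribosomal protein mRNAs, and the recoding of stop codons. The ratio also carries everything that makes one library see a transcript better than the other. Here it is given as log2 footprints over RNA, on a scale where the libraries were normalised so that the trimmed average gene lies near 0, and 1 unit is a 2-fold difference. A negative value therefore means fewer footprints per RNA read than the average gene, not the absence of translation.

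Short stretches of the transcripts are shown first, since the genes that carry them are those described next. All come from GENCODE M21 transcripts on GRCm38, are written 5′ to 3′ on the mRNA strand as DNA letters, and carry the element in capitals. In the histone mRNAs the capitals mark the 3′ stem-loop, in ferritin mRNAs the loop of the iron-responsive element, and in the stress-response mRNAs and Odc1 the upstream start codon with the longest reading frame. In the selenoprotein mRNAs they mark the UGA read as selenocysteine, in Peg10 the heptamer where ribosomes slip, and in Rpl4 and Rack1 the pyrimidine tract at the transcript start.
H4c14, chr3:96262930-96262959, minus strand: ctaacGGCCCTTTTTAGGGCCaaccacagt
H2ax, chr9:44335235-44335264, plus strand: acaaaGGCCCTTTTAAGGGCCaccacctcc
Fth1, chr19:9982732-9982761, plus strand: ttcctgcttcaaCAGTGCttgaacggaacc
Ftl1, chr7:45459778-45459807, minus strand: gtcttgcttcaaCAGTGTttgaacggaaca
Atf4, chr15:80255672-80256222, plus strand, across an intron: gcctaagccATGgcgctcttcacgaaatcc
Ddit3, chr10:127290820-127290849, plus strand: gattatatcATGttgaagatgagcgggtgg
Ppp1r15a, chr7:45526214-45526243, minus strand: gcgtggacgATGttggcgcagattgagtca
Odc1, chr12:17545126-17545155, plus strand: ggcgcctccATGggtcaggccagccgggcc
Selenow, chr7:15920452-15922256, minus strand, across an intron: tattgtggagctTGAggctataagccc
Selenoi, chr5:30266952-30266978, plus strand: ccaaactcagatTGActaggaatggaa
Peg10, chr6:4755316-4755345, plus strand: aattcgccgccGGGAAACtccccggccccg
Rpl4, chr9:64173375-64173394, plus strand: CTTTTCCTgtgggagcagcc
Rack1, chr11:48800360-48800379, plus strand: CTTTTTCTccacagggtcgt

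Footprint libraries held 3353371 to 12409644 counts on 13711 to 15321 detected transcripts, and RNA libraries 17354972 to 51538191 on 12969 to 16317. The sympathetic neuroblast markers Phox2a, Th, Dbh, Hand2, Gata3, Isl1 and Mycn were present, with median RNA levels from 25.9 to 568 CPM (counts per 1e+06 counts of the scaled library). The RNA library of mouse P5828 stood apart, with the smallest total, the fewest transcripts and 43.3% of its counts on cytosolic ribosomal protein genes against 22.4 to 33.8% in the others. Over genes, the footprints of D135, D5802, D5823 and PD5732 deviated from their group mean against the RNA of the same mouse, with correlations of -0.09, -0.028, -0.145 and -0.258, where the other mice had 0.011 to 0.542. Within their group, the footprints of D135 went best with the RNA of D5802 and those of D5802 with the RNA of D135. Those of D5823, PD5732, P5785 and PD5825 also went best with the RNA of another mouse. Ratios of these single mice and the fit with the mouse as a block thus rest on a labelled pairing that these correlations do not bear out. No library was reassigned. The baseline ratio was also estimated without P5828, without D135, D5823 and PD5732, and without these 3 and P5828 together. The number of genes past 2-fold in each direction moved by less than 1.5 times in all 3 cases. D5802, P5785 and PD5825 were left out only on their own.

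The ratio spanned a wide range and was shared by the groups. Of 14094 genes tested, 3673 (26.1%) had footprints more than 2-fold above the average gene and 3666 (26.0%) more than 2-fold below, by edgeR's test against a 2-fold threshold at an adjusted p of 0.05. The median log2 ratio was -0.11, the quartiles lay at -1.30 and 1.33, and 5% of genes each lay below -2.89 and above 3.62. A test of any difference from 0 called 11989 genes (85.1%), of which 5711 (40.5%) were higher and 6278 (44.5%) lower, so the 2-fold threshold is used throughout and its calls are named high and low. Of the 7339 genes past 2-fold (52.1%), 6310 (44.8% of genes tested) had all 15 mice on the same side of 0, 3142 of them high and 3168 low.

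**Figure D1:**
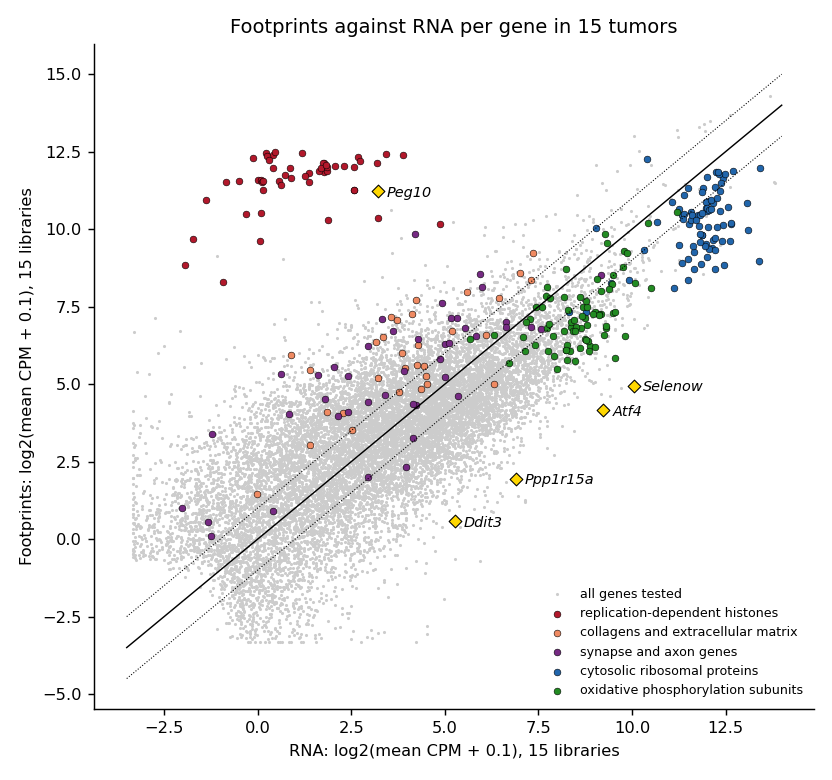
Footprint level against RNA level of each gene tested, as log2(mean CPM + 0.1) over 15 mice per assay. The solid line marks equal levels and the dotted lines a 2-fold difference. Replication-dependent histones lie far above the lines at RNA gene means of 0.16 to 29.3 CPM, and ribosomal proteins mostly lie below at high RNA levels.

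Within the DFMO group 3302 genes were high (23.4%) and 3143 low (22.3%). The diet group had 3220 high (22.8%) and 3396 low (24.1%), and the combination group 3295 high (23.4%) and 2941 low (20.9%). Genes high in all 3 groups numbered 2574 and genes low in all 3 numbered 2342, while 0 genes were high in one group and low in another. Of all 14094 genes tested, 12304 had the same sign in every group. Among the 7339 called genes 7315 did, which largely follows from a call that pools these same groups. Across genes, which are not independent replicates, the ratios correlated at r = 0.93 between DFMO and diet, 0.95 between DFMO and combination, and 0.93 between diet and combination. The groups share no library in these values. A test of the ratio between groups passed for 249 genes (1.77%), of which 147 were also past 2-fold. That count was 37 without D135, D5823 and PD5732 and 27 without these 3 and P5828, and it ranged from 93 to 336 when single mice were left out.

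**Figure D2:**
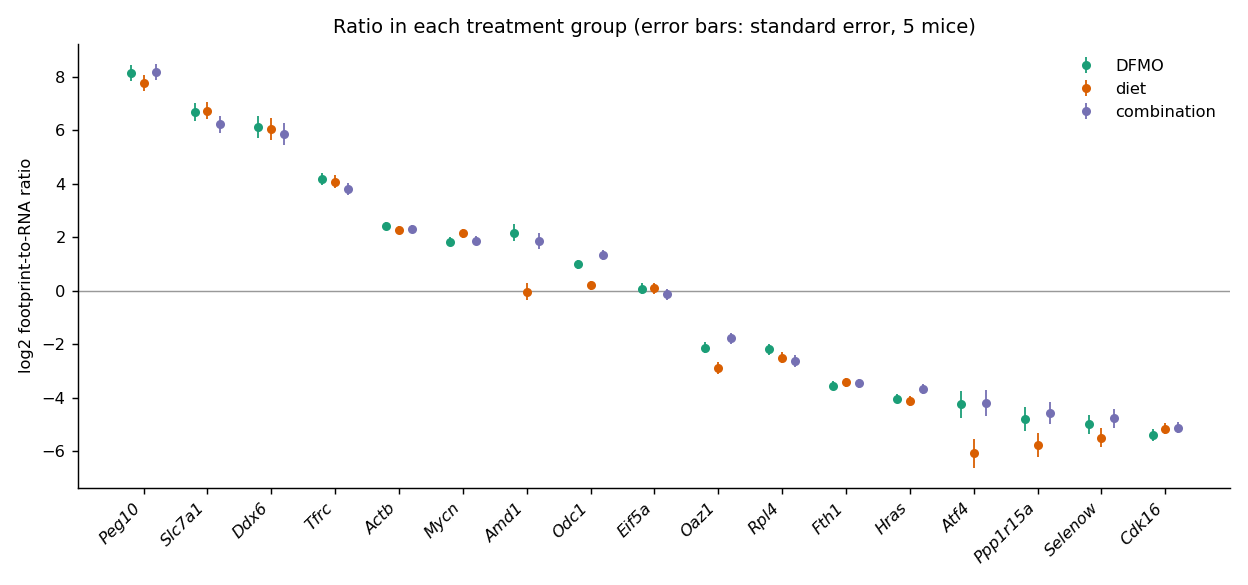
Log2 ratio in the DFMO, diet and combination groups for 17 genes, with bars of 1 SE from the edgeR fit of 5 mice per group and assay. Most genes keep their place in all 3 groups, and Amd1 lies near 0 in the diet group and near 2 in the others.

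The length of the 3′ untranslated region (UTR) of the counted transcript went with the ratio more closely than any other property examined. In the 1760 genes with the shortest 3′ UTRs, of 0 to 202 bases, the median log2 ratio was -1.53, with 10.6% of genes high and 57.4% low. In the 1753 genes with the longest, from 3090 bases up, the median was 1.80, with 61.2% high and 6.5% low. The 6 classes between had medians of -1.23, -0.81, -0.23, 0.18, 0.77 and 1.25 in order of length. Footprints per kilobase of coding sequence hardly differed between these classes, at log2 CPM medians of 3.01 in the shortest and 2.77 in the longest. RNA per coding kilobase fell from 4.24 to 0.86 over the same classes. The Spearman correlation across 14029 genes was 0.53 for the ratio, from 0.45 to 0.56 in single mice, against -0.01 for footprints and -0.31 for RNA per coding kilobase. The labels and files do not say which part of a transcript the RNA reads were counted on, and whether the gradient belongs to the transcripts or to the counting cannot be told apart here.

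**Figure D3:**
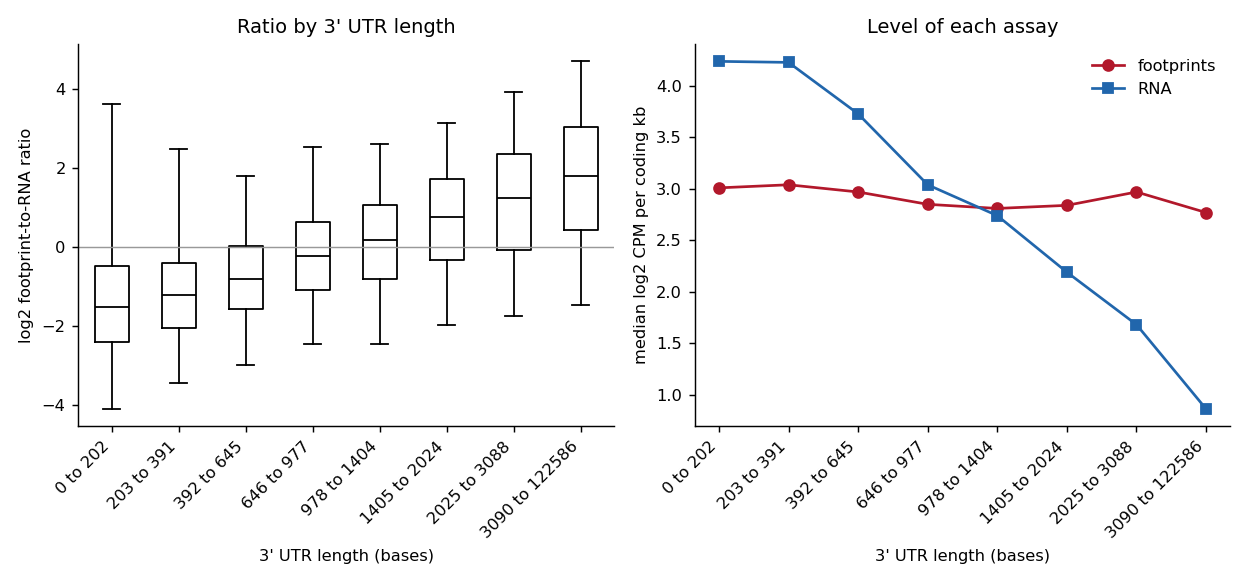
Left, log2 ratio of genes in 8 classes of 3′ UTR length, with boxes at the quartiles and whiskers at the 5th and 95th percentiles. Right, the median log2 CPM per kilobase of coding sequence in footprints and RNA. The ratio rises from -1.53 to 1.80 while the footprint line stays between 2.77 and 3.04 and the RNA line falls from 4.24 to 0.86.

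Because of this gradient each gene is also given a ratio matched for 3′ UTR length, which is its log2 ratio minus the running median of the 250 genes on either side in length. This alternative was chosen after seeing the data. With the running median as an offset in edgeR, 2614 genes (18.6% of 14029) were high and 2689 (19.2%) low. Of the genes called without it, 2061 high and 1842 low ones kept their call, and 0 turned to the opposite one. A turn would have to carry a ratio from beyond 1 on one side of 0 to beyond 1 on the other. The length classes have medians of only -1.53 to 1.80, so this 0 was nearly fixed in advance. Another 553 genes became high and 847 became low. The matched ratio had quartiles of -0.98 and 0.97.

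Other properties went with the ratio more weakly. Coding length had a Spearman correlation of 0.22 with the ratio, 5′ UTR length 0.08, GC content of the coding sequence -0.13, the arginine content of the protein -0.16 and the proline content 0.00. The number of upstream AUGs, each a possible start site before the main one, had -0.05, and -0.12 with the matched ratio. In the matched ratio, genes without an upstream AUG had a median of 0.14 and genes with 4 or more of -0.29. The 324 transcripts that start with a pyrimidine tract had a median of -0.23 with 84 high and 97 low. The 13371 that do not had a median of -0.10 with 3486 high and 3438 low. Both sets of counts lie near the shares of all genes, 26.1% high and 26.0% low. Genes with a G after the start codon had a median of -0.11 where a purine stood 3 bases before it and -0.39 where a pyrimidine did. These are descriptions across genes and carry no test.

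Some ratios belong to sequences that genes share. Reads from near-identical copies, or from genes that overlap on the same strand, cannot be assigned with certainty, and how the authors assigned them is not given in the sources used here. In 11401 genes the coding sequence shares no 30-base word with another gene and overlaps no exon of one. Of these, 2803 (24.6%) were high and 2971 (26.1%) low, close to the shares over all genes. The 215 genes with 80.4 to 100% of their coding sequence covered by same-strand exons of another gene had a median of -1.90, and 61.4% were low. Of the 10 highest named genes other than histones, 8 share coding words with another gene, namely Csl, Aldoart1, Eif4a3l1, Rpl39l, Rasl2-9, Aldoart2, Rbm8a2 and Tuba3a. They are retrocopies or paralogs of other genes with RNA medians of 0 to 0.126 CPM, so their values, 8.02 to 11.78, are uncertain. Csl, for example, had 32 to 51.3 CPM in footprints and no RNA count in 12 of 15 libraries, and its log2 ratio of 11.78 depends on the count added to zeros. The other two, Peg10 and Kctd12, share no such words. At the low end, exons of another gene cover the coding sequences of Gdf1 and Cers1 fully, and those of Mapkapk5 and Adam1a fully or almost fully. Their ratios of -9.87, -9.06, -5.84 and -5.81 are uncertain because such reads cannot be assigned with certainty. RNA levels were the same for Gdf1 and Cers1 (11.6 to 58.2 CPM, median 19.8). They were nearly the same for Mapkapk5 and Adam1a (median 112 CPM in both), so the genes of a pair are not separate observations. Gdf1 and Cers1 also had no footprint count in 13 and 11 of 15 libraries.

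Among genes without shared sequence, chosen after their values were seen, the highest were Peg10 at 8.04, Kctd12 at 7.54, Slc5a3, a myo-inositol transporter, at 6.65, Slc7a1 at 6.54, Epm2aip1 at 6.46, Larp4, an RNA-binding protein, at 6.23, Kcnk9, a potassium channel, at 6.08, Ddx6, a helicase of mRNA decay, at 6.01, Klhl11 at 5.87 and Tnks, the tankyrase, at 5.86. Their medians ran from 22.8 to 2386 CPM in footprints and from 0.189 to 7.8 CPM in RNA. Their 3′ UTRs had 2395 to 11033 bases, except that of Klhl11 with 253. The lowest were Spef1 at -7.78, Lime1 at -6.91, Sbsn at -5.89, Fam149a at -5.51, Rnf208 at -5.40, Lrrc51 at -5.31, Zdhhc1 at -5.23, Cdk16 at -5.22, Selenow at -5.08 and Parp6 at -5.00. Footprint medians of Spef1, Lime1, Sbsn and Fam149a were only 0, 0.365, 0.304 and 0.522 CPM. These genes had no footprint count in 9, 1, 2 and 2 of 15 libraries, so their ratios rest on few reads. Parp6 and the kinase gene Cdk16 had the smallest errors, with SEs of 0.10 and 0.12. Parp6 had 6.79 to 15.1 CPM in footprints and 267 to 418 in RNA, and the assays did not overlap. Map3k10 at -5.65, with 11.3% of its coding sequence antisense to exons of another gene, and Wbp1 at -5.44 complete the 10 lowest named genes.

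**Figure D4:**
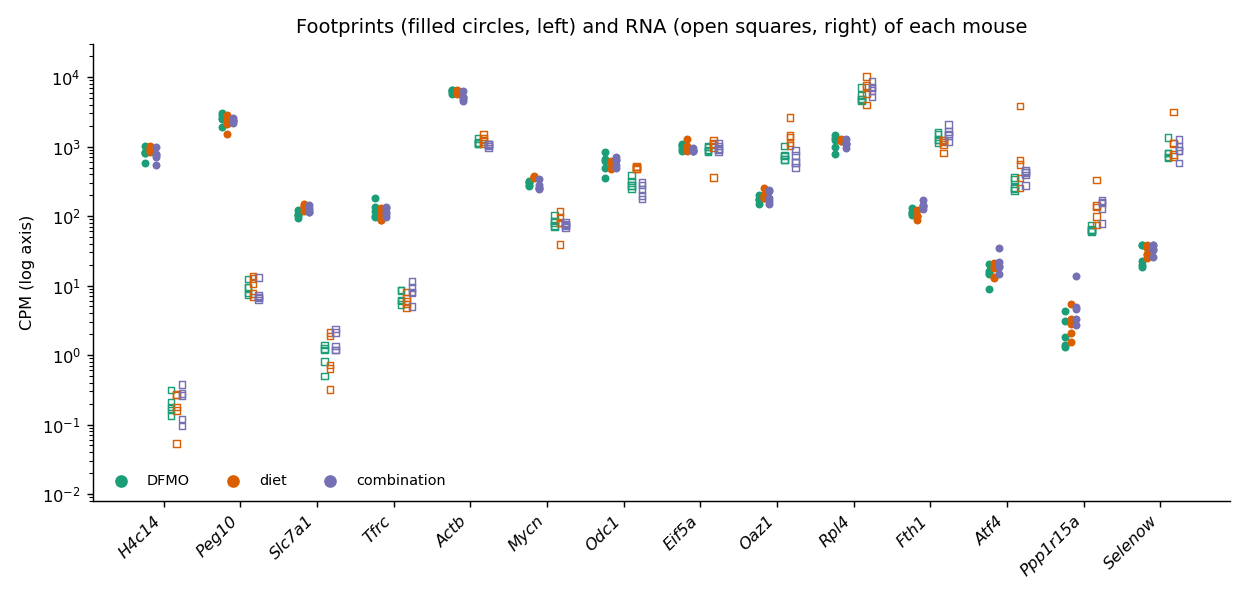
CPM of 14 genes in each mouse on a log axis, footprints beside RNA. Footprints and RNA of Atf4, Fth1, Peg10 and H4c14 do not overlap, while those of Odc1 and Eif5a do.

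Histone genes had the highest ratios of any list. Replication-dependent histones, which package newly made DNA, have mRNAs that end in a stem-loop in place of a poly(A) tail. All 51 of these genes tested, of 66 listed, were high and 0 low, with a median of 10.57 and a range of 5.35 to 12.85, and in single mice the list median was 9.46 to 11.60. They took 11.8 to 22.2% of footprint counts and 0.00931 to 0.0244% of RNA counts. H4c14, which makes histone H4, had 535, 823 and 1022 CPM in footprints as the lowest, median and highest of 15 mice. Its RNA stood at 0.0532, 0.179 and 0.376 CPM, so the assays did not overlap, and the log2 ratio was 11.92 ± 0.20 (SE) with an adjusted p of 5e-31. H3c13 had 12.69 ± 0.22, Hist1h4n 11.62 ± 0.20 and Hist1h4m 11.64 ± 0.21. Most of the coding sequence of a typical member is shared with another gene (median 81.7%), and 8 members have an identical copy, so values of single members are less certain than the total.

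The histone stem-loop consensus, a stem of 6 base pairs around a loop of 4 bases, was searched on the mRNA strand in the first 150 bases of the 3′ UTR. It was found in 63 of 14029 transcripts (0.449%), of which 53 were high and 5 low, against 26.1% and 26.0% of all genes. Of the 63, 45 are listed histones, all of them high as given above, so the high count mostly repeats that list. Whether the RNA libraries were made from polyadenylated RNA is not stated in the labels as given. H4c14 carries the element 41 bases after the end of its coding sequence and H2ax 49 bases after, the stop codon counted among these bases. H2ax, the histone of DNA damage signalling, is known to be made both with a stem-loop and with a poly(A) tail. It had 761, 1627 and 1996 CPM in footprints and 3.14, 11.1 and 25.8 in RNA, without overlap, at a log2 ratio of 7.12 ± 0.25 (adjusted p 4.01e-22).

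The histone variants listed as made from polyadenylated mRNAs, with H2ax counted among them, varied more. Of 11 tested, 4 were high and 2 low, with a median of 0.56 (matched 0.66, with 5 high and 2 low). Over all genes 26.1% were high and 26.0% low (matched 18.6% and 19.2%). Apart from H2ax, H2aj stood at 5.17 ± 0.28 and H3f3a, the replacement histone H3.3, at 3.03 ± 0.14. H2az2, a variant of histone H2A at promoters, was low at -2.07 ± 0.22 (adjusted p 6.24e-06). Its near relative H2az1, named after its value was seen, had 0.56 ± 0.10 and did not pass, and H3f3b, which makes the same H3.3 protein as H3f3a, had 1.21 ± 0.11 (adjusted p 0.0141).

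Before matching for 3′ UTR length, every list of the translation machinery had a median below that of all genes, -0.11. When matched, aminoacyl-tRNA synthetases (0.33) and ribosome biogenesis factors (0.30) lay above the median of all genes, 0.00. Ribosomal proteins, other oligopyrimidine mRNAs and initiation factors stayed below it. Counts in these lists stand beside 26.1% high and 26.0% low over all genes (matched 18.6% and 19.2%). Of 82 cytosolic ribosomal protein genes, 51 were low and 1, Rpl15, was high, with a median of -1.39. These genes took 11.1 to 14.4% of footprint counts and 22.4 to 43.3% of RNA counts, and the libraries of the assays did not overlap in this share. Rpl4, of the large subunit, had 776, 1198 and 1475 CPM in footprints. Its RNA stood at 3992, 6371 and 10229 CPM, so every RNA library lay above every footprint library, at a log2 ratio of -2.44 ± 0.13 (adjusted p 1.11e-13). Among the named members, Rps27 (-3.02) and Rpl13a (-4.24) share nearly all their sequence with another gene and are uncertain. The 3′ UTRs of the list are short, with a median of 75 bases, and matching for length moved its median to -0.20, with 7 high and 18 low. Rpl4 stood at -1.12 there and no longer passed.

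Other mRNAs with a 5′ oligopyrimidine tract, which make elongation factors and related proteins and are controlled together by mTOR, gave 1 high (Hnrnpa1) and 11 low of 25, with a median of -1.11 (matched -0.38, with 2 high and 6 low). Eef1b2, the exchange factor of elongation factor 1, had -3.27 ± 0.23, Eif3f, a subunit of initiation factor 3, -2.95 ± 0.12, Rack1, a scaffold on the small subunit, -2.86 ± 0.15 and Eif3k -2.81 ± 0.17. Eef1a1, the factor that brings tRNAs to the ribosome, differed from these. It had 13577, 21515 and 26577 CPM in footprints and 10399, 12832 and 16769 in RNA, with overlapping assays and a log2 ratio of 0.62 ± 0.11 that did not pass 2-fold. Matched for its 3′ UTR of 288 bases it stood at 1.81 and was high (adjusted p 3.73e-09).

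Initiation factors had 3 high and 13 low of 32 (median -0.97, matched -0.09 with 3 high and 4 low). Eif2b5, of the exchange factor that the stress response inhibits, had -2.11 ± 0.08, and Eif1b -2.13 ± 0.09, whereas Eif2s3x, a subunit of initiation factor 2, had 2.54 ± 0.11. Aminoacyl-tRNA synthetases had 0 high and 7 low of 20 (median -0.42), led by Qars at -1.91 ± 0.08, and the matched ratio gave 5 high and 2 low (median 0.33). Ribosome biogenesis factors had 3 high and 12 low of 49 (median -0.71, matched 0.30 with 8 high and 8 low). Emg1 stood at -3.02 ± 0.16 and Nhp2 at -2.45 ± 0.10 among the low ones, and Rrs1 at 2.02 ± 0.13 among the high ones.

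The next lists stand beside the same shares of all genes, 26.1% high and 26.0% low (matched 18.6% and 19.2%). Mitochondrial ribosomal proteins had 0 high and 45 low of 76, with a median of -1.27. They kept a matched median of -0.74 with 1 high and 30 low. Mrpl42 had -3.40 ± 0.14 (matched -1.84) and Mrps7 -2.12 ± 0.09 (matched -2.07). Nuclear-encoded subunits of oxidative phosphorylation had 0 high and 46 low of 76 and a median of -1.46. Their matched median was -0.31, with 5 high and 10 low, and Ndufb9, of complex I, went from -2.46 ± 0.10 to -0.87. Proteasome subunits had 0 high and 15 low of 32 (median -1.04), and 2 high and 3 low when matched (median -0.01), where Psma7 went from -1.82 ± 0.10 to -0.25. Cytosolic chaperones had 4 high and 9 low of 28 (median -0.51, matched -0.05 with 6 high and 3 low), with Pfdn5, a prefoldin subunit, at -2.93 ± 0.19 and Hsp90aa1, an Hsp90 gene, at 2.11 ± 0.09. Endoplasmic reticulum chaperones had 8 high and 4 low of 27 (median 0.13, matched 0.24 with 6 high and 4 low), from Ssr4 at -2.41 ± 0.12 to Sel1l, of the degradation machinery, at 3.71 ± 0.15.

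**Figure D5:**
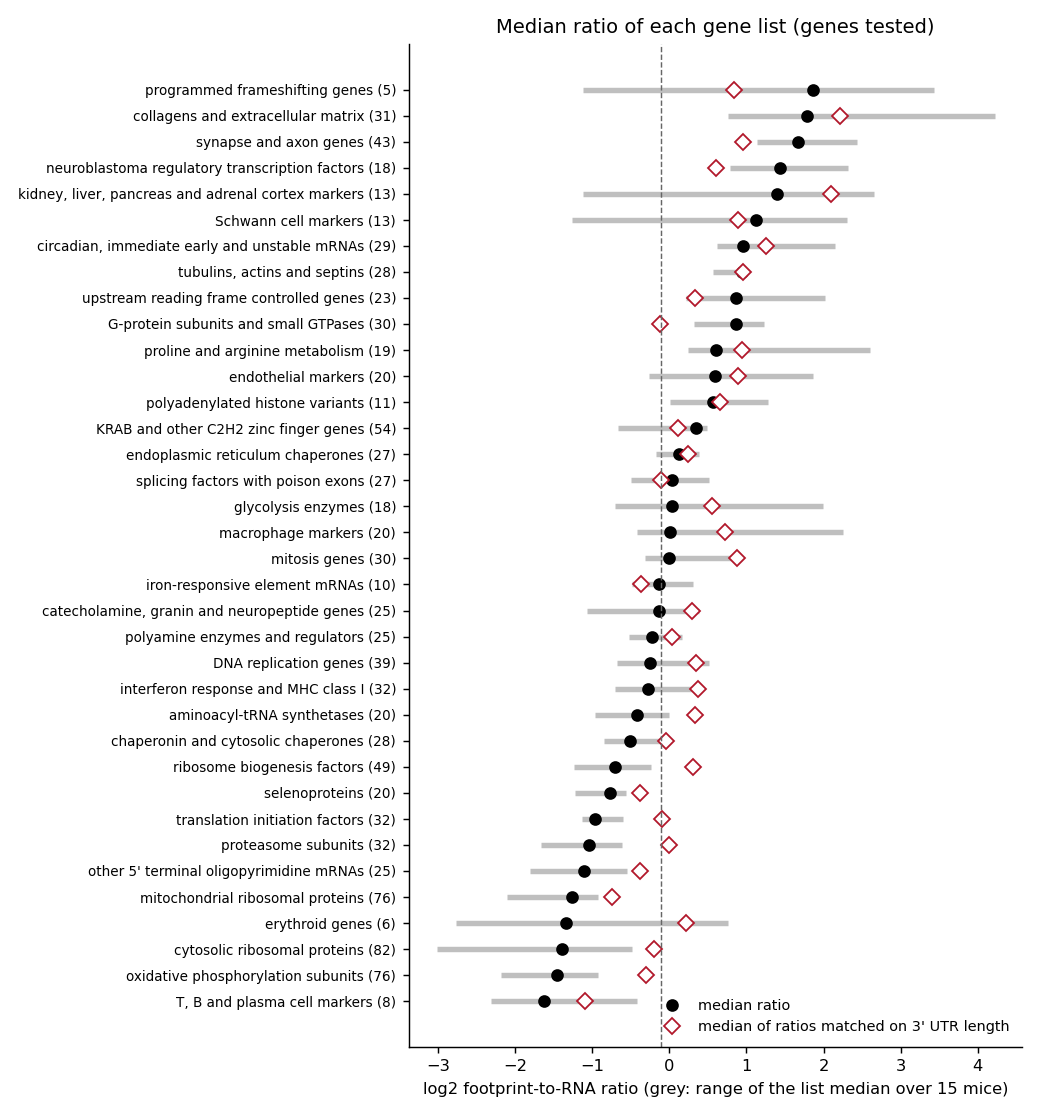
Median log2 ratio of 36 gene lists as points, the range of the list median over 15 mice in grey, and the median matched for 3′ UTR length as diamonds. The dashed line is the median of all genes, -0.11, and replication-dependent histones, at 10.57, are not drawn. Mitochondrial ribosomal proteins lie below the line by both measures, extracellular matrix genes lie above it by both, and ribosomal and proteasome proteins come close to it when matched.

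Of 23 genes known for upstream reading frames, 11 were high and 6 low, with a median of 0.86 (matched 0.33, with 7 high and 7 low). Over all genes 26.1% were high and 26.0% low (matched 18.6% and 19.2%), so the low count is near the background. The low members include 3 effectors of the integrated stress response, in which upstream frames hold ribosomes back until initiation factor 2 is phosphorylated. Atf4, the transcription factor of that response, had 9.02, 18 and 34.2 CPM in footprints and 233, 359 and 3821 in RNA. The assays did not overlap, and the log2 ratio was -4.81 ± 0.34 (adjusted p 6.73e-13, matched -3.24). The highest RNA value goes with P5828, whose own ratio was -7.69, and without this mouse the ratio of Atf4 was -4.34. Its transcript has 3 upstream AUGs, and the frame shown above has 59 codons and overlaps the main start.

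Ddit3, which encodes CHOP, had 0.374, 0.832 and 5.56 CPM in footprints and 16.2, 30.2 and 90.1 in RNA, again without overlap, at -4.87 ± 0.29 (adjusted p 5.46e-15, matched -3.38). Its longest upstream frame has 34 codons. Ppp1r15a, which encodes the phosphatase subunit GADD34 that ends the response, had 1.29, 3.1 and 13.8 CPM in footprints and 59.7, 98.5 and 333 in RNA, at -4.99 ± 0.26 (adjusted p 1.69e-16, matched -3.40). The ratio of all 3 genes lay below 0 in all 15 mice, and all 3 stayed low when matched for length.

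High members include transporter and signalling genes. Slc7a1, the main arginine transporter of most cells, had 94.2, 121 and 147 CPM in footprints and 0.318, 1.19 and 2.37 in RNA, at 6.54 ± 0.19 (adjusted p 1.45e-24). Every footprint library lay far above every RNA library. Its 3′ UTR has 5033 bases, and the matched ratio was 4.61. Klhl24 stood at 3.86 ± 0.16 (matched 1.91) and Csnk2a1, the catalytic subunit of casein kinase 2, at 3.02 ± 0.11 (matched 1.59).

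Of 25 polyamine enzymes and regulators, the pathway that DFMO acts on, 5 were high and 8 low, with a median of -0.23 (matched 0.03, with 4 high and 4 low). These shares lie near those of all genes, 26.1% high and 26.0% low (matched 18.6% and 19.2%), so the members are described one by one. Odc1, the enzyme that DFMO blocks, had 351, 603 and 839 CPM in footprints and 176, 304 and 513 in RNA, with overlapping assays. Its log2 ratio was 0.85 ± 0.13, above 0 in 14 of 15 mice but not past 2-fold (adjusted p 0.933), and it was high at 2.06 when matched for its 3′ UTR of 336 bases (adjusted p 2.1e-09). By group, the ratio of Odc1 was 0.99 in DFMO, 0.20 in diet and 1.34 in combination, each with an SE of 0.18, and the test between groups gave an adjusted p of 0.0337. That call was lost in 15 of 24 other settings, with adjusted p up to 0.421. Odc1 carries 2 upstream AUGs, and the frame shown above has 10 codons.

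Amd1 makes S-adenosylmethionine decarboxylase, which supplies the aminopropyl groups of spermidine and spermine, and its mRNA has a short upstream frame known to respond to polyamines. It had 24.6, 105 and 304 CPM in footprints and 17.5, 34 and 56.8 in RNA, with overlap. Its ratio was 2.18 ± 0.32 in DFMO, -0.03 ± 0.31 in diet and 1.86 ± 0.31 in combination, and differed between groups with an adjusted p of 0.00824. The difference passed in 21 of 23 other settings, where the adjusted p ran from 0.000137 to 0.335, and without D135, D5823, PD5732 and P5828 it was 0.0153. Over all groups the ratio was 1.37 ± 0.26 (adjusted p 0.0425), and that call was lost without any 1 of the 5 DFMO or 5 combination mice.

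The antizyme genes make inhibitors of ornithine decarboxylase through a ribosomal frameshift that polyamines promote. Oaz1 had 150, 182 and 255 CPM in footprints and 497, 763 and 2613 in RNA, without overlap, at -2.26 ± 0.15 (adjusted p 1.73e-10). By group it stood at -2.12 in DFMO, -2.90 in diet and -1.78 in combination (adjusted p between groups 0.0763), and its matched ratio of -1.08 did not pass. Oaz2 was low at -1.34 ± 0.13 (adjusted p 0.00252), a call lost with library totals, DESeq2 and limma and without D135, D5823 and PD5732. The antizyme inhibitor Azin1, which frees the enzyme, was high at 1.45 ± 0.17 (adjusted p 0.00291, or 0.0547 without D135, D5823, PD5732 and P5828), with 15.7, 41.7 and 78 CPM in footprints and 4.13, 15.9 and 27.3 in RNA. Its matched ratio was 0.04.

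Of the genes of polyamine breakdown and export, Sat1, Smox and Atp13a2 were low. Sat1, the acetyltransferase whose translation polyamines are known to raise, had 9.29, 17 and 28.1 CPM in footprints and 49.9, 72.9 and 105 in RNA, without overlap, at -2.16 ± 0.11 (adjusted p 2e-12, matched -1.10 and not passing). Smox, spermine oxidase, stood at -2.87 ± 0.14 by both measures and passed in both. Atp13a2, a lysosomal polyamine exporter, had -2.41 ± 0.14 (matched -1.24). The synthases were near the average, with -0.69 ± 0.12 for Srm and 0.18 ± 0.10 for Sms. Eif5a, the factor whose hypusine is made from spermidine, had 852, 928 and 1306 CPM in footprints and 358, 964 and 1239 in RNA, at 0.02 ± 0.11. Its paralog Eif5a2 was high at 4.51 ± 0.30, with only 0 to 0.349 CPM in RNA.

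Genes of proline and arginine metabolism and transport had 7 high and 1 low of 19, against 26.1% and 26.0% of all genes. Their median was 0.60 (matched 0.94, with 7 high and 0 low, against 18.6% and 19.2%). The high ones include the glutamine and proline carrier Slc38a2 at 3.78 ± 0.17, the arginine transporter Slc7a2 at 4.55 ± 0.22, and Slc7a1 described above. Their 3′ UTRs have 2738 to 5777 bases, and their matched ratios were 2.36, 2.61 and 4.61.

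Iron-responsive elements are hairpins bound by iron regulatory proteins, which block translation when they lie before the start codon and stabilise the mRNA when they lie in the 3′ UTR. The list had 3 high and 3 low of 10 (median -0.13, matched -0.37 with 2 high and 2 low). Fth1, the ferritin heavy chain with the hairpin in its 5′ UTR, had 87.7, 116 and 171 CPM in footprints and 810, 1249 and 2085 in RNA, without overlap. Its log2 ratio was -3.47 ± 0.10 (adjusted p 6.64e-23), and -1.99 when matched. The light chain Ftl1 had 385, 484 and 552 CPM in footprints and 1274, 2377 and 3568 in RNA, at -2.34 ± 0.12 (adjusted p 3.14e-13). It shares 88.5% of its coding sequence with other genes, and its matched ratio of -0.87 did not pass. The loop motif CAGTGN with a C set 5 bases before it, searched on the mRNA strand, occurs in the 5′ UTR of 8.45% of transcripts, of which 319 of 1185 were high and 331 low, close to the 26.1% and 26.0% of all genes. Tfrc, the transferrin receptor with hairpins in its 3′ UTR, had 86.8, 115 and 181 CPM in footprints and 4.86, 6.58 and 11.5 in RNA, at 4.02 ± 0.13 (adjusted p 9.96e-22, matched 2.79). Epas1, which encodes the hypoxia factor HIF-2α and has a 5′ hairpin, was high at 3.60 ± 0.18 (matched 2.47).

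Selenoproteins insert selenocysteine at a UGA codon that would otherwise stop the ribosome. An in-frame TGA was found in 21 of 14029 coding sequences (0.15%), 20 of them listed selenoproteins. Of the 20, 5 were high and 8 low, against 26.1% and 26.0% of all genes. Their median was -0.77 (matched -0.38, with 3 high and 2 low, against 18.6% and 19.2%). The 10 with the UGA nearest the start had a median of -1.98 and the 10 with it nearest the end of -0.65 (matched -1.02 and -0.01). Across the 20 genes the Spearman correlation of UGA position with the ratio was 0.33 and with the matched ratio 0.42. Selenow, with the UGA at codon 13 of 87, had 18.2, 32.4 and 38.9 CPM in footprints and 583, 874 and 3148 in RNA, without overlap, at -5.08 ± 0.21 (adjusted p 1.87e-19, matched -3.85). Selenoi, with the UGA at codon 388 of a coding sequence of 1194 bases, had 28.9, 42.9 and 52.7 CPM in footprints. Its RNA stood at 0.954, 2.18 and 4.38 CPM, at 4.27 ± 0.12 (adjusted p 3.26e-23, matched 2.28). Its 3′ UTR has 5431 bases against 350 in Selenow. Selenoh (-2.41 ± 0.13) and Selenom (-2.78 ± 0.17) were low and did not pass when matched.

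Genes with programmed frameshifting had 3 high and 2 low of 5, against 26.1% and 26.0% of all genes. Their median was 1.87 (matched 0.84, with 2 high and 1 low, against 18.6% and 19.2%). Peg10, an imprinted gene derived from a retrotransposon whose reading frames are joined by a frameshift, had 1519, 2386 and 3069 CPM in footprints and 6.16, 7.8 and 13.7 in RNA. Every footprint library lay above every RNA library, at a log2 ratio of 8.04 ± 0.17 (adjusted p 1.18e-28, matched 6.06). By group, Peg10 stood at 8.14, 7.78 and 8.19 in DFMO, diet and combination. Its slippery heptamer GGGAAAC, shown above, occurs in 1698 coding sequences (12.1%), of which 566 were high and 318 low. The related gene Rtl1 stood at 1.87 ± 0.28.

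Genes of the neuroblast state were more often high than low. Of 18 genes of the neuroblastoma regulatory circuit, mostly transcription factors, 9 were high and 1 low, against 26.1% and 26.0% of all genes. Their median was 1.43 (matched 0.60, with 7 high and 1 low, against 18.6% and 19.2%). Insm1, a zinc finger factor of neuroendocrine differentiation, had 35, 110 and 222 CPM in footprints and 1.61, 3.18 and 12 in RNA, without overlap, at 4.88 ± 0.20 (adjusted p 2.43e-19, matched 4.66). Sox11, a factor of immature neurons, stood at 4.54 ± 0.19. Hand2, another factor of this circuit, went the other way, with 46.5, 57.4 and 76.1 CPM in footprints and 196, 247 and 335 in RNA, at -2.10 ± 0.10 (adjusted p 1.76e-13, matched -1.85). Mycn had 245, 312 and 372 CPM in footprints and 38.9, 78.9 and 116 in RNA, at 1.96 ± 0.10 (adjusted p 2.3e-11, matched 1.98). The transgene of this model is human MYCN, and the share of its reads counted on the mouse gene was not tested.

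Counts here stand beside 26.1% high and 26.0% low over all genes (matched 18.6% and 19.2%). Catecholamine, granin and neuropeptide genes had 4 high and 3 low of 25 (median -0.14, matched 0.29 with 4 high and 2 low). The vesicular transporter Slc18a2 had 3.05 ± 0.16 and the vesicle protein Syp 1.67 ± 0.14, while the neuropeptides Npy and Gal had -2.14 ± 0.25 and -2.28 ± 0.27. Th, tyrosine hydroxylase, had overlapping assays and -0.60 ± 0.13. Synapse and axon genes had 27 high and 0 low of 43, with a median of 1.67 (matched 0.96, with 16 high and 2 low). Map1b, a microtubule-binding protein of growing axons, had 667, 929 and 1177 CPM in footprints and 10.8, 15.2 and 47.9 in RNA, at 5.68 ± 0.19 (adjusted p 3.43e-22, matched 3.91), without overlap. The axon guidance receptors Dcc and Plxna4 stood at 5.11 ± 0.23 and 4.77 ± 0.20, and the calcium sensor Syt1 at 3.75 ± 0.17.

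Matrix and cytoskeletal genes were more often high than low, with and without matching. Collagens and other extracellular matrix genes had 21 high and 1 low (Lamb2) of 31, against 26.1% and 26.0% of all genes (median 1.79). When matched, 26 were high and 0 low, against 18.6% and 19.2% (median 2.21). Nid1, a basement membrane linker, had 37.7, 56.7 and 108 CPM in footprints and 0.636, 1.66 and 2.85 in RNA, without overlap, at 5.03 ± 0.18 (adjusted p 7.07e-21). Col12a1, Fbn1 and Lamc1 had 4.04 ± 0.17, 3.56 ± 0.17 and 3.18 ± 0.11. Tubulins, actins and septins had 10 high and 2 low of 28 (median 0.94, matched 0.95 with 12 high and 2 low). Actb, cytoplasmic actin, had 4464, 6177 and 6610 CPM in footprints and 947, 1103 and 1516 in RNA, at 2.34 ± 0.08 (adjusted p 6.58e-18, matched 2.84), and Actg1 had 2.99 ± 0.14. Both share part of their sequence with other genes (13% and 10.9%).

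Lists of growth and regulatory genes are given beside the shares of all genes, 26.1% high and 26.0% low (matched 18.6% and 19.2%). Mitosis genes had 7 high and 2 low of 30 (median -0.01, matched 0.88 with 10 high and 2 low), led by cyclin B1, Ccnb1, at 2.92 ± 0.15. DNA replication genes had 6 high and 10 low of 39 (median -0.25, matched 0.34 with 12 high and 5 low), from Orc6, of the origin recognition complex, at -2.46 ± 0.17 to Pola1, of DNA polymerase alpha, at 2.09 ± 0.15. Glycolysis genes had 6 high and 1 low of 18 (median 0.03, matched 0.55 with 7 high and 3 low), with hexokinase, Hk2, at 4.22 ± 0.23 and Gpi1 at -1.46 ± 0.12. Splicing factors with poison exons had 9 high and 3 low of 27 (median 0.04, matched -0.11 with 5 high and 4 low), with Srsf1 at 3.45 ± 0.14 and the kinase Clk4 at -2.50 ± 0.23.

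Circadian, immediate early and other short-lived mRNAs had 11 high and 0 low of 29 (median 0.95, matched 1.26 with 14 high and 0 low), with Zfp36l2, which destabilises mRNAs, at 4.97 ± 0.24. Zinc finger genes of the KRAB and other classes had 13 high and 11 low of 54 (median 0.35, matched 0.11 with 10 high and 11 low), and the 4 named ones, Zfp35, Zfp61, Zfp13 and Zfp90, were low at -2.90 to -3.68. G proteins and small GTPases had 10 high and 5 low of 30 (median 0.86, matched -0.12 with 6 high and 5 low). Gnaq stood at 4.11 ± 0.15, and Hras had 7.29, 11.7 and 17.9 CPM in footprints and 126, 188 and 252 in RNA, without overlap, at -3.94 ± 0.11 (adjusted p 2.37e-23, matched -5.01).

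Genes of other cells in the tumor were measured as well. Their levels in bulk tissue cannot tell fewer cells of a type from less RNA per cell, while the values below are ratios. Counts in these lists, and in the erythroid and organ lists, stand beside 26.1% high and 26.0% low over all genes (matched 18.6% and 19.2%). Unmatched macrophage counts lie near these shares. Endothelial markers had 4 high and 1 low of 20 (median 0.59, matched 0.89 with 7 high and 0 low), with Cdh5 at 3.83 ± 0.22. Macrophage markers had 6 high and 5 low of 20 (median 0.01, matched 0.72 with 7 high and 0 low), from Tyrobp at -2.53 ± 0.16 to Cx3cr1 at 3.94 ± 0.30. Schwann cell markers had 5 high and 3 low of 13 (median 1.13, matched 0.89 with 4 high and 2 low). T, B and plasma cell markers had 1 high and 5 low of 8 (median -1.63, matched -1.10 with 0 high and 2 low). Interferon and MHC class I genes had 4 high and 3 low of 32 (median -0.28, matched 0.37 with 4 high and 2 low), with Irf7 at -3.91 ± 0.28.

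Erythroid genes had 1 high and 3 low of 6 (median -1.34, matched 0.22 with 1 high and 0 low). The alpha globins Hba-a1 and Hba-a2 varied with the mouse more than most, with 326 to 136944 and 311 to 143196 CPM in RNA, and their ratios of -1.61 ± 0.38 and -1.59 ± 0.39 lost their call in several settings, among them without P5828 (adjusted p 0.208 and 0.26). Kidney, liver, pancreas and adrenal cortex markers had 5 high and 0 low of 13 (median 1.39, and 8 high and 0 low when matched). Alb, the albumin gene, stood at 3.48 ± 0.62, with 0.222 to 55.5 CPM in RNA, and the pancreatic Ctrb1 at 1.93 ± 0.54, with 0 to 167.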

How the data were processed

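Ribosome footprints and total RNA of tumors were sequenced from the same extracts. Per the submitters' processing notes, cutadapt, Bowtie2 and HISAT2 were used on GRCm38. The authors deposited counts per transcript, 1 transcript per gene, used in all tests, and RPKM values on coding lengths in both assays, used in 1 alternative. The sources used here do not give versions, the counting tool or the counted region. No column was left unused (0).

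Counts were fitted with edgeR 4.0.16 in R 4.3.3 (robust quasi-likelihood, TMM scaling, filterByExpr, assay and group as terms). High and low genes passed glmTreat against a log2 ratio of 1, Benjamini-Hochberg adjusted over all genes, at 0.05. SEs come from the quasi-likelihood F, and p-values measure spread between libraries of the same assay and group. The main fit leaves out the pairing of the assays of a mouse, which only the block alternative uses. Ratios between groups were tested by the interaction of assay and group. CPM is per 1e+06 counts of the TMM-scaled total. The alternatives were RLE scaling, library totals, no filter, the mouse as a block, leaving out each mouse or those that stood apart, a 3′ UTR offset, and other tools, for which limma 3.58.1 took log2(RPKM + 0.1) and DESeq2 1.42.0 the counts. Python 3.11.15 with pandas 2.3.3 and matplotlib 3.10.9 made tables and drawings. The scripts were tested on simulated data.

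UTRs, sequences and coordinates come from GENCODE M21, whose release need not be that of the authors. Named genes were the 10 highest and 10 lowest with a mean of at least 10 CPM and all mice on the same side, predicted genes, replication-dependent histones and ribosomal proteins left out, up to 4 passing members of each of 37 lists, taken by lowest p, and 18 genes of polyamine, stress, iron, elongation and neuroblast biology. Some genes that these rules name are not reported here. Genes named for a count of 1 and those without shared sequence were chosen after their values were seen. The members and lists were chosen with earlier results of these data known. Labels say that the libraries of a mouse share an extract, so mouse numbers pair the assays, and the correlations of deviations were -0.258 to 0.542.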

Additional observations from a re-analysis of the deposited data

Results flagged for a closer look

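Among 570 group ratios of named genes examined, each over 5 mice, 40 (7.02%) had a mouse far from the other 4 of its group by Dixon's criterion of 0.71, which chance alone meets in about 1 of 20. The values are log2 ratios of that mouse, with its footprints and RNA paired as labelled. Mouse P5828, whose RNA library stood apart, accounts for 17 of them: Ppp1r15a (-7.68), Atf4 (-7.69), Smox (-2.81), Oaz1 (-3.84), Cdk16 (-4.42), Egfl7 (-6.54), H2aj (2.77), H3f3a (5.08), Pgam1 (5.92), Actg1 (5.17), Ccnb1 (4.88), Ptbp2 (3.34), Mrc1 (6.79), Srm (0.91), Eif5a (1.37), Larp4 (11.09) and Tnks (9.76).

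Mouse PD5732 stood apart in Actb (2.61), Ccnb1 (3.51), Kif11 (2.70), Gal (-3.53) and Egfl7 (-4.15). P5705 did so in Qars (-1.18), Rrs1 (1.50) and Ndufv3 (-1.82). D5747 stood apart in Wbp1 (-5.00), H4c14 (10.49) and Pola1 (1.47), and PD5746 in Peg10 (7.45), Eif2b5 (-1.96) and Psmc4 (-1.46). D5802 was far from its group in Eif4e2 (-2.57) and Ptbp2 (3.04), and PD5825 in Klhl24 (4.40) and Zfp61 (-4.18). A single gene was found for D5806 (Selenow, -4.39), D5823 (Sel1l, 3.49), P5784 (Ngfr, -1.35), PD5736 (Csl, 8.09) and PD5805 (Selenoi, 3.56).

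The ratio differed between the 3 groups, by the test of the difference, for 4 of the named genes, namely Amd1 (adjusted p 0.00824), Tuba3a (0.0303), Odc1 (0.0337) and Orc6 (0.0379). In the other settings the adjusted p of Tuba3a ran from 0.00143 to 0.093 and passed in 15 of 24, and that of Orc6 from 0.00734 to 0.516 and passed in 8 of 24.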

How the results depend on the processing

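Of 190 named genes, 137 kept direction and call in every setting tried and 179 in all but the 3′ UTR offset, and of 37 list medians 12 and 33 moved by less than the spread between mice. The counts of high and low genes over all groups stayed within 1.5 times in every setting. RLE scaling moved the median of all genes from -0.11 to 0.06, and the share of high among calls ran from 49.1 to 57.3%. The low count in the DFMO group was 1942 and in the combination group 1846 with DESeq2, and limma on RPKM gave 2022 in the diet and 1951 in the combination group. The offset lowered the high count of the combination group to 2177. The count of genes that differed between groups moved most, to 81 with library totals, 156 without a filter, 720 with DESeq2, 75 with limma, 37 without D135, D5823 and PD5732, 27 without these and P5828, and 93 to 336 when single mice were left out (93 without P5785, and 127 to 160 without any 1 of D135, D5823, P5784, PD5732, PD5736 and PD5805). The cause was not tested. Leaving out single mice gave 3620 to 3902 high and 3514 to 3753 low genes. Direction turned with the offset for Hba-a2 (0.02), Srm (0.56), Sms (-0.92) and Th (0.64). Eif5a turned to -0.10 without D135, D5823, PD5732 and P5828, 0.00 without D135 or D5806, and -0.01 without D5823, in a range of -0.01 to 0.09 over the mice left out. With the mouse as a replicate block, 3712 genes were high, 3646 low and 180 differed between groups, and among named genes Amd1 (adjusted p 0.0765), Hba-a1 (0.119) and Hba-a2 (0.162) lost their call. The alternative that divides by the coding share of the transcript was not run, since the deposited lengths are coding lengths in both assays. Depth limits genes with RNA or footprints near 0 CPM, whose ratios depend on few reads.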
